A study of Homo sapiens with 35 samples.

Results

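The IκB proteins and the feedback inhibitors of NF-κB were followed as 9 genes, of 62696 in the count table and 16879 with enough reads to test. They were selected by symbol, for their known roles, with no threshold on a measured value, but with earlier results of these data known. The cytoplasmic IκB genes were NFKBIA, NFKBIB and NFKBIE, the nuclear IκB genes were NFKBIZ and BCL3, and the genes acting on ubiquitin chains upstream of the kinases were TNFAIP3, TNIP1 and CYLD. TNFAIP2, a TNF-inducible gene that bears the name of the family but encodes an exocyst-related protein, was kept beside them. All 9 passed the filter on low counts.

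The cells were U-87 MG, an established human glioblastoma line, and TWEAK is a TNF family cytokine that acts through the receptor Fn14 (TNFRSF12A). RNA-seq was made from control cells left untreated, control cells given TWEAK at 10 ng/ml for 48 h, and ETS1 KD and NFKB2 KD cells given the same TWEAK treatment, with 3 libraries in each group. ChIP-seq peak lists came from the same line, 2 libraries per condition: p52 in control cells without and with TWEAK and in ETS1 KD cells made with guide 1 or guide 2 and treated with TWEAK; ETS1 in control cells without and with TWEAK; and RNA polymerase II (RNA Pol II) in the same 4 conditions as the RNA-seq. The KD cells carried a lentiviral CRISPR vector and kept part of the transcript of the targeted gene, and no KD cells were profiled without TWEAK. The labels do not say which guide was used for the RNA-seq and RNA Pol II libraries.

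NF-κB dimers are held in the cytoplasm by IκB proteins, which the IκB kinases mark for degradation when a receptor signals. NFKBIA, NFKBIB and NFKBIE encode the IκBs that bind RelA- and c-Rel-containing dimers, and NFKBIA is a textbook case of negative feedback, because NF-κB itself switches the gene on. IκBζ (NFKBIZ) and BCL3 act in the nucleus instead, where they bind p50 or p52 homodimers and change which targets are transcribed. TNFAIP3 (A20) and CYLD take apart ubiquitin chains that carry the signal to the kinases, and TNIP1 (ABIN-1) binds such chains together with A20. TWEAK is known for sustained signalling through the non-canonical arm, in which NIK (MAP3K14) drives the processing of the NFKB2 product p100 to p52. p100 itself also restrains NF-κB in the manner of an IκB.

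The RNA-seq libraries held 28384201 to 40192606 counts in genes. NFKB2 was lower in NFKB2 KD than in control cells, both with TWEAK, at 75.7, 92.6 and 105 against 235, 289 and 346 CPM (read counts scaled to the library total after TMM normalisation), and ETS1 was lower in ETS1 KD cells at 28.2, 33.0 and 37.8 against 71.9, 73.1 and 87.6 CPM. Both differences passed the test (log2 fold change -1.67 ± 0.18 SE, edgeR adjusted p = 0.00339, and -1.23 ± 0.15, adjusted p = 0.00112). Of the 5 glial markers, GFAP, S100B, SOX2 and AQP4 stayed at 13 counts or fewer in every library, so the line held almost none of these transcripts. The remaining glial marker, OLIG2, was low but had enough reads to test. It averaged 1.22 CPM both in untreated and in TWEAK-treated control cells (log2 0.01 ± 0.27, edgeR adjusted p = 0.995). The mesenchymal markers VIM, CD44 and FN1 were abundant. The summed level of 5 mesenchymal markers ran from 12198 to 14369 CPM in untreated cells and from 19041 to 21016 CPM with TWEAK, and their part in the results was not tested. VIM made up most of that sum (9110 against 16000 CPM on average, called higher), while CHI3L1 fell from 279 to 60.6 CPM (log2 -2.20 ± 0.48, edgeR adjusted p = 0.0282). FN1 was at 1770 and 793 CPM, without overlap and without a call. The immune markers PTPRC and CD3E were at 3 counts or fewer throughout. ITGAM had 0 or 1 count without TWEAK and 22 to 63 with it, and the 5 immune markers together summed to 1.54 to 1.88 CPM in untreated and 2.65 to 3.08 CPM in TWEAK-treated control cells.

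With TWEAK, 5 of the 9 genes rose in control cells and none fell. All 3 cytoplasmic IκB genes were among them, together with the nuclear IκB gene NFKBIZ and the A20 partner TNIP1. By the same threshold 1.55% of all genes tested were higher. The median log2 fold change of the 9 genes was 0.56, against 0.02 for all genes tested. In bulk RNA, more transcript per cell and a larger share of cells expressing the gene cannot be told apart.

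NFKBIE, which encodes IκBε, had the largest change of the 9. It stood at 8.44, 8.33 and 6.16 CPM in untreated cells and at 33.3, 35.0 and 38.1 CPM with TWEAK. No library of either group came near the other. The rise was 4.64-fold (log2 2.22 ± 0.17 SE, n = 3 per group, edgeR adjusted p = 2.92e-05), and the call held under all 20 alternatives tried. NFKBIA, which encodes IκBα, went from 23.8, 26.0 and 25.8 CPM to 56.5, 59.8 and 73.4 CPM. The untreated libraries lay close together and well below every treated one. This was a 2.51-fold rise (log2 1.33 ± 0.15, adjusted p = 0.00051), and it too held under all 20 alternatives. NFKBIB, which encodes IκBβ, rose less, from 23.4, 21.8 and 23.6 CPM to 34.9, 34.8 and 31.9 CPM. The groups did not overlap, as was the case in this direction for 11.0% of all genes, and the 1.48-fold change passed the test (log2 0.56 ± 0.11, adjusted p = 0.0155) but was called under 13 of the 20 alternatives. It was lost, at adjusted p up to 0.0897, without untreated library 1 or 2 or control TWEAK library 1 or 2, and also with no filter on low counts (adjusted p = 0.0756), with GC content and length corrected (0.0559) and at the study's fold threshold.

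Of the 2 nuclear IκB genes, NFKBIZ was called and BCL3 was not, and the difference between them was not tested. NFKBIZ was at 17.8, 17.7 and 20.8 CPM without TWEAK and at 28.3, 33.0 and 45.5 CPM with it. The treated libraries were all higher but spread widely. The change was 1.90-fold (log2 0.92 ± 0.22, adjusted p = 0.0406) and was called under 12 of the 20 alternatives. Among the fits with 1 library left out it was called in 4 of 12, being lost without any 1 of the untreated or ETS1 KD libraries and without control TWEAK library 2 or 3, and was smallest without control TWEAK library 3 (log2 0.70, adjusted p = 0.19). BCL3 was at 16.0, 16.0 and 34.5 CPM in untreated cells and at 11.1, 27.3 and 29.0 CPM with TWEAK. The lowest library of the 6 was a treated one and the highest an untreated one, and the groups covered much the same range. The log2 fold change was 0.02 ± 0.43 (adjusted p = 0.993), an SE too wide to show a moderate change in either direction. The value was -0.21 without control TWEAK library 3 and 0.50 without untreated library 3.

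Among the genes that act on ubiquitin chains, TNIP1 was the most abundant at 161, 158 and 201.3 CPM and rose to 232, 259 and 295 CPM. All treated libraries were above all untreated ones. The rise was 1.51-fold (log2 0.60 ± 0.12, adjusted p = 0.0213) and was called under 15 of the 20 alternatives, being lost, at adjusted p up to 0.135, without untreated library 1 or 2 or control TWEAK library 2 or 3 and in the fit of the groups compared alone. TNFAIP3, which encodes A20, was at 8.69, 10.1 and 10.5 CPM without and at 10.3, 13.0 and 18.7 CPM with TWEAK. One treated library lay inside the untreated range, and the difference missed the threshold (log2 0.53 ± 0.22, adjusted p = 0.284). CYLD was at 131, 138 and 121 CPM and then at 169, 139 and 156 CPM, without overlap but by a small margin (log2 0.25 ± 0.15, adjusted p = 0.501). TNFAIP2 overlapped fully, at 48.5, 50.5 and 65.6 CPM against 42.1, 53.8 and 62.1 CPM (log2 -0.06 ± 0.21, adjusted p = 0.946).

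**Figure D1:**
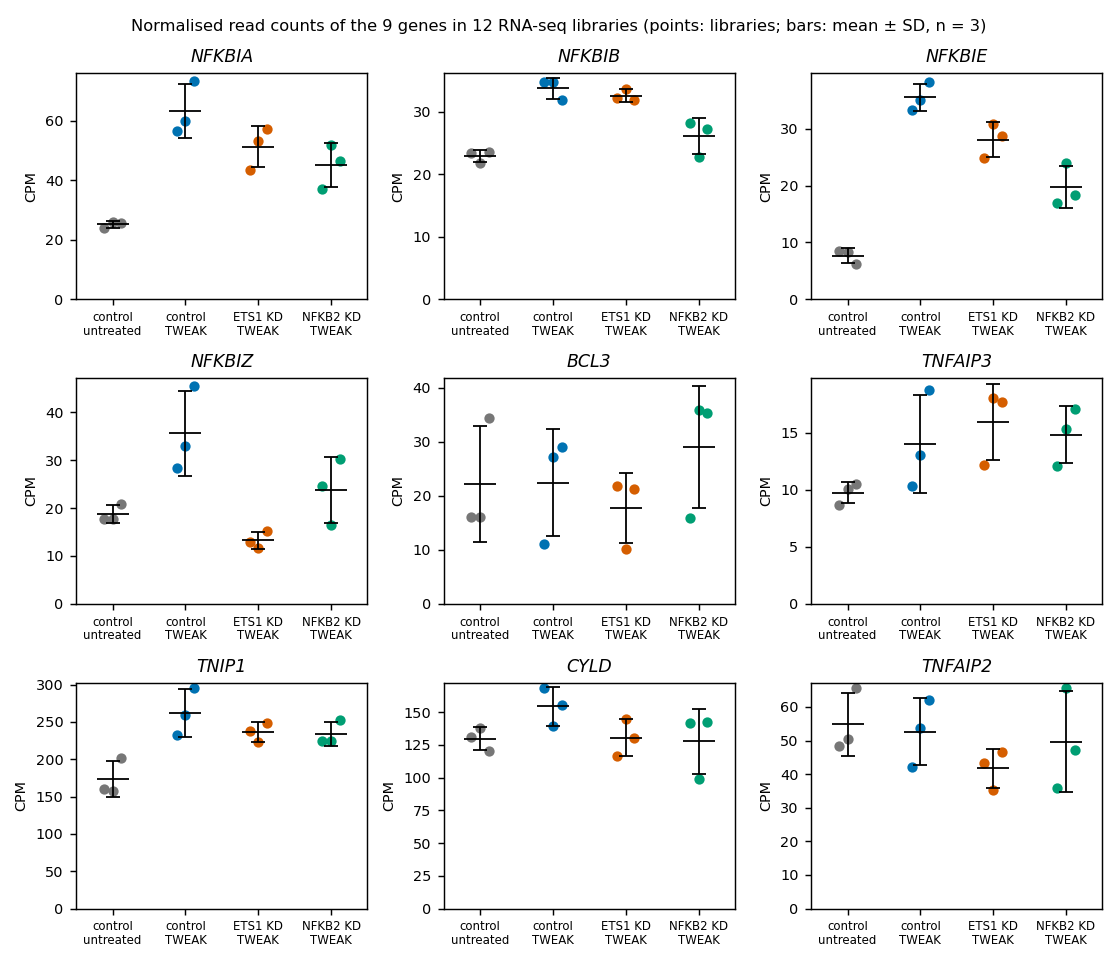
Normalised read counts (CPM, linear axis from 0) of the 9 genes in each of the 12 RNA-seq libraries, by group. Points are libraries, and black bars are the group mean with SD (n = 3). NFKBIE and NFKBIA in TWEAK-treated control cells sit above every untreated library, NFKBIZ in ETS1 KD cells sits below every other library, and the BCL3 groups overlap.

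Because CPM depends on transcript length, the genes were ranked per length, as TPM, the length-corrected share of each gene in its library. In untreated cells TNIP1 led at 114 ± 18 TPM (SD, n = 3), followed by TNFAIP2 at 41.3 ± 7.78, CYLD at 38.1 ± 2.18 and NFKBIB at 37.5 ± 1.88, which overlapped in this order. NFKBIA at 28.2 ± 1.75 and BCL3 at 27.4 ± 13.7 also overlapped, as did NFKBIZ at 12.1 ± 1.38 and NFKBIE at 11.2 ± 1.73, and TNFAIP3 was last at 5.75 ± 0.644. With TWEAK, NFKBIA moved up to the second place at 70.7 ± 12.6 TPM, above NFKBIB at 55 ± 1.35 and NFKBIE at 52.1 ± 5.50, which overlapped each other. TNIP1 at 172 ± 27.1 TPM kept the top place and TNFAIP3 at 8.29 ± 2.84 TPM the bottom one.

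In ETS1 KD cells, 1 of the 9 genes differed from control cells with both under TWEAK, and it was NFKBIZ. Its level was 13.0, 11.7 and 15.1 CPM in ETS1 KD against 28.3, 33.0 and 45.5 CPM in control cells. The highest KD library lay below the lowest control library, as for 10.8% of all genes. All 3 KD libraries also lay below the untreated range of 17.7 to 20.8 CPM, as for TNFAIP2 and for 18% of all genes. For NFKBIZ the log2 fold change against TWEAK-treated control cells was -1.42 ± 0.22 (edgeR adjusted p = 0.0054). It was called under all 20 alternatives, with adjusted p at most 0.0321. Against untreated control cells the log2 difference was -0.50 ± 0.22 and missed the threshold (adjusted p = 0.164). It was called under 4 of the 20 alternatives, namely no filter, only the groups compared, and the replicate block with and without the correction for GC content and length, at adjusted p down to 0.0289. Of all genes tested, 1.13% were lower in ETS1 KD.

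The other 8 genes gave no call in ETS1 KD. NFKBIE, at 24.8, 30.8 and 28.6 CPM, was below all 3 control libraries, as were 10.8% of all genes, but the difference was small (log2 -0.34 ± 0.16, adjusted p = 0.421). NFKBIA at 43.5, 53.2 and 57.1 CPM overlapped the control libraries (log2 -0.30 ± 0.15, adjusted p = 0.461). The remaining log2 differences were -0.34 ± 0.43 for BCL3, -0.34 ± 0.22 for TNFAIP2, -0.24 ± 0.15 for CYLD, -0.15 ± 0.12 for TNIP1, -0.05 ± 0.11 for NFKBIB and 0.19 ± 0.22 for TNFAIP3. Compared directly with untreated control cells, TWEAK-treated ETS1 KD cells still had higher NFKBIE (log2 1.88 ± 0.17), NFKBIA (1.02 ± 0.15), NFKBIB (0.51 ± 0.11) and TNIP1 (0.45 ± 0.12), all past the threshold, although TNIP1 was called in only 6 of 12 fits with 1 library left out, and lost without untreated library 1 or 2, control TWEAK library 2 or any ETS1 KD library. In that comparison 6.22% of all genes were higher. TNFAIP3 lay above all untreated libraries, as 16.9% of all genes did, but narrowly missed the threshold (log2 0.71 ± 0.22, edgeR adjusted p = 0.0508). It was called under 10 of the 20 alternatives.

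In NFKB2 KD cells none of the 9 genes was called against control cells by edgeR, while 4 of them, the cytoplasmic IκB genes and NFKBIZ, had an unadjusted p under 0.05. The comparison called 5 genes of 16879 in all, or 0.0296%, and the unadjusted p was under 0.05 for 3.91%. DESeq2 called 34 genes, 1 of the 9 among them. NFKBIE came closest. It was at 17.0, 23.9 and 18.3 CPM, below all control libraries and above all untreated ones, with a log2 difference of -0.85 ± 0.16 (unadjusted p = 0.000153, edgeR adjusted p = 0.194). This was the gene that DESeq2 called (log2 -0.83, adjusted p = 0.00314), as did edgeR with no filter on low counts (log2 -0.81, adjusted p = 0.00265), and over all its alternatives the adjusted p ran from 0.00265 to 0.994. NFKBIA at 37.2, 51.7 and 46.4 CPM and NFKBIB at 28.3, 22.8 and 27.3 CPM were also below all control libraries, which held for 3.82% of all genes, with log2 differences of -0.49 ± 0.15 and -0.37 ± 0.11 (unadjusted p = 0.00651 and 0.0047, adjusted p = 0.813 and 0.766). NFKBIZ at 24.6, 16.4 and 30.2 CPM overlapped the control libraries (log2 -0.59 ± 0.22, adjusted p = 1). TNFAIP3 at 12.1, 15.3 and 17.1 CPM stayed near control levels (log2 0.08 ± 0.22, adjusted p = 1), and so did TNIP1 at 225, 225 and 252 CPM (log2 -0.16 ± 0.12, adjusted p = 1).

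Against untreated control cells, TWEAK-treated NFKB2 KD cells had higher NFKBIE (log2 1.37 ± 0.17, edgeR adjusted p = 0.00257) and NFKBIA (0.84 ± 0.15, adjusted p = 0.0265), while 0.409% of all genes were higher. NFKBIB, at 0.19 ± 0.11, did not pass (adjusted p = 0.756). TNFAIP3 (0.61 ± 0.22, adjusted p = 0.392) and TNIP1 (0.43 ± 0.12, adjusted p = 0.2) had no call either. Both lay above all untreated libraries, which held for 5.32% of all genes. The NFKBIA call held in 6 of 12 fits with 1 library left out. It was lost without any 1 of the untreated libraries, control TWEAK library 2, ETS1 KD library 2 or NFKB2 KD library 3, at adjusted p up to 0.18. Neither gene was called in the fit of the 2 groups alone (adjusted p = 0.138 for NFKBIA and 0.0618 for NFKBIE). The comparisons with control cells under TWEAK share those 3 control libraries, and those with untreated cells share the untreated ones. Set against each other directly, ETS1 KD and NFKB2 KD cells gave no call among the 9 genes by edgeR, while 3 had an unadjusted p under 0.05. NFKBIZ was lower in ETS1 KD by a log2 difference of -0.84 ± 0.22 (unadjusted p = 0.00227, adjusted p = 0.0769, called by DESeq2 at adjusted p = 0.00955 and under 7 of the 20 alternatives in all), NFKBIE was higher by 0.51 ± 0.16 (unadjusted p = 0.00723, adjusted p = 0.134), and NFKBIB by 0.32 ± 0.11 (unadjusted p = 0.0118, adjusted p = 0.167). Of all genes 1.94% were called and 15.5% had an unadjusted p under 0.05 in this comparison.

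**Figure D2:**
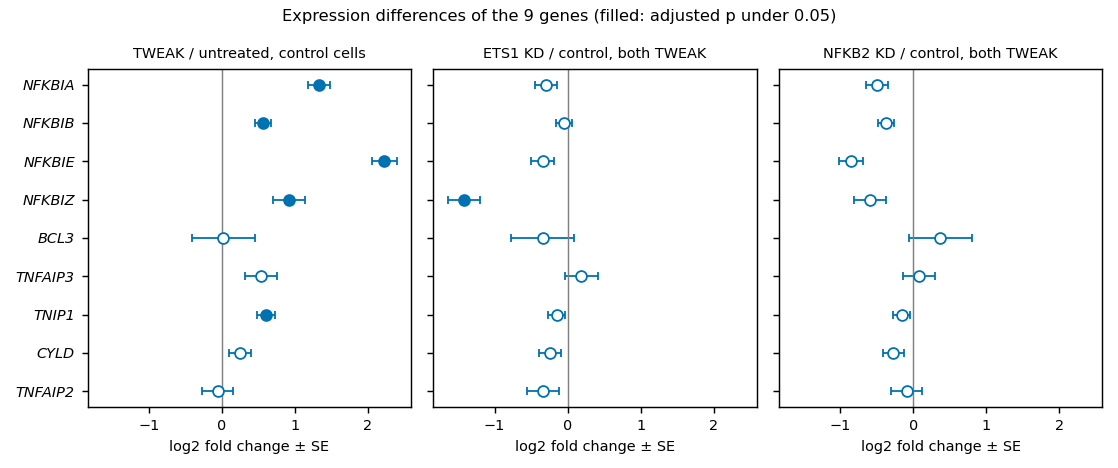
Log2 fold changes with SE of the 9 genes from the edgeR fit of all 12 libraries, for TWEAK against untreated control cells and for each KD against control cells with TWEAK. Filled points passed an adjusted p of 0.05: NFKBIE, NFKBIA, NFKBIZ, TNIP1 and NFKBIB to the right in the first panel and NFKBIZ to the left in the second, with none in the third.

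The p52 peak lists asked where the processed NFKB2 product sat at these genes. A site was counted where both libraries of a condition had overlapping peaks, in the gene or within 15 kb of any annotated start site. Without TWEAK none of the 9 genes had a p52 peak in either library, as for nearly all genes (0.0711% had a site). With TWEAK, 7 of the 9 had a site, against 13.6% of all genes tested. The median region searched was 40.8 kb for the 9 genes and 46.3 kb for all genes. The exceptions were NFKBIE and NFKBIZ, which had peaks in the second library only. Within 1 kb of the MANE start, 6 of the 9 had a site, against 3.87% of the 12698 genes tested that have such a start. All shares of genes with a site within 1 kb of it were taken over these 12698. The TWEAK lists were longer, 3579 and 11761 peaks against 714 and 452 without, and no read depth was given with the lists. With every p52 list cut to its 452 strongest peaks, the length of the shortest, 4 of the 9 genes had a site, against 1.94% of all genes.

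The 7 genes held 13 sites between them, and 12 of these had a match to the κB consensus, the decamer bound by NF-κB dimers, within 100 bp of the summit on either strand. A match was found in 74.5% of all 2911 p52 sites of TWEAK-treated control cells on the main chromosomes and in 8.17% of windows of the same size around the MANE start sites of genes tested (MANE is the reference transcript of a gene). How near to the summit the match lay at all p52 sites was not counted. In 10 of the 13 the match nearest to the summit was centred within 10 bp of it, and at NFKBIA it was 29 bp away. These 11 are printed from hg38, 5′ to 3′ on the strand where the consensus reads, with the match in capitals, to show the element under each peak.
NFKBIB, start site, chr19:38899926-38899965, plus strand: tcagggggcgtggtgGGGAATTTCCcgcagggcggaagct
NFKBIA, intron 1, chr14:35403948-35403987, plus strand: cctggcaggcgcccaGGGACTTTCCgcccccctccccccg
BCL3, 1190 bp upstream, chr19:44747500-44747539, minus strand: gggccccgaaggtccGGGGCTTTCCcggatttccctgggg
BCL3, start site, chr19:44748695-44748734, plus strand: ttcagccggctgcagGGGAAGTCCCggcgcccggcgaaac
BCL3, intron 2, chr19:44753433-44753472, plus strand: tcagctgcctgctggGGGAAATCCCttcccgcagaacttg
TNIP1, 6178 bp upstream, chr5:151087192-151087231, plus strand: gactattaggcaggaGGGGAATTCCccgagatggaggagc
TNIP1, 13207 bp upstream, chr5:151094221-151094260, plus strand: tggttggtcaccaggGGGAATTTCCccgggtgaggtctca
TNIP1, 4572 bp upstream, chr5:151085589-151085628, plus strand: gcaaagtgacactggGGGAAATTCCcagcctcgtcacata
TNFAIP3, start site, chr6:137867177-137867216, minus strand: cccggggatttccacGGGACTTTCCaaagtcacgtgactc
CYLD, intron 1, chr16:50742400-50742439, plus strand: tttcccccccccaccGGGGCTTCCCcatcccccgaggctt
TNFAIP2, 14372 bp upstream, chr14:103109069-103109108, minus strand: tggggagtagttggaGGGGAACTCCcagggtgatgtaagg

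The same decamer, GGGAATTTCC, lay under the NFKBIB start site peak and the TNIP1 peak at 13207 bp, and GGGACTTTCC lay under the NFKBIA and TNFAIP3 peaks. The TNIP1 site at its MANE start, not printed, also held GGGACTTTCC, 42 bp from the summit. The site without a match was the one 10666 bp upstream of BCL3. Motifs of other factors were searched in the same windows. The ETS core AGGAAG, searched on both strands, lay within 100 bp of the summit in 4 of the 13, against 24.4% of all p52 sites and 22.1% of start sites. The longer core CCGGAAG, which does not contain AGGAAG, was in 0 of 13, against 2.10% of p52 sites and 15.3% of start sites. The AP-1 motif TGANTCA was in 2 of the 13, at NFKBIB and 1190 bp upstream of BCL3, against 24.2% of all p52 sites and 2.51% of start sites.

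The strongest p52 peaks lay at TNIP1 and NFKBIB. At TNIP1 (chr5:151029945-151093577, minus strand) the site 6178 bp upstream of the MANE start, 46 bp from another annotated start, had a fold enrichment over background of 30.4 and 63.6 in the 2 control libraries with TWEAK, which ranked 55 and 31 in their lists. The others lay 13207 bp upstream, at 26.2 and 52.6, 4572 bp upstream, at 17.4 and 35.0, and at the MANE start itself, in its UTR exon, at 6.90 and 13.5. A gene with at least 4 sites was rare, at 0.0770% of genes tested, and TNIP1 and BCL3 were both among them. The region searched was 87.9 kb for TNIP1 and 40.8 kb for BCL3, against a median of 46.3 kb for all genes tested. The longest of the 9 was 88.6 kb, at CYLD. At NFKBIB (chr19:38899700-38908893, plus strand) the only site had its summit 23 bp upstream of the MANE start, at a fold enrichment of 35.5 and 68.2 and ranks of 76 and 53.

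At BCL3 (chr19:44747705-44760044, plus strand), whose transcript did not move with TWEAK beyond its spread, p52 sat at 4 sites. They were 1190 bp upstream (25.9 and 47.3), at the start site (24.8 and 39.7), in intron 2, 4746 bp downstream (16.5 and 43.9), and 10666 bp upstream (7.19 and 10.7). The first of these lay 187 bp from another annotated start of the gene. NFKBIA (chr14:35401079-35404749, minus strand) had 1 site in intron 1, 810 bp downstream of the MANE start and 35 bp from another annotated start, with a fold enrichment of 8.04 and 16.3 and ranks of 1829 and 1851. This was weaker than the strongest site of BCL3, TNIP1 or NFKBIB, although NFKBIA had the second largest rise in RNA of the 9. TNFAIP3 (chr6:137867214-137883314) had a peak 58 bp upstream at 5.32 and 11.3, and CYLD (chr16:50742050-50801935) one in intron 1, 344 bp downstream, at 9.74 and 29.9. The TNFAIP2 site (20.3 and 50.3) was 14372 bp upstream of the MANE start of TNFAIP2, at chr14:103121476-103137439, inside the gene EXOC3L4, whose own MANE start was 14364 bp away, so the assignment to TNFAIP2 rests on the window alone.

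NFKBIE and NFKBIZ had p52 peaks in the second control library with TWEAK, the one with the longest list, and not in the first. At NFKBIE (chr6:44258166-44265788, minus strand), apart from 2 peaks in the neighbouring gene HSP90AB1, they lay 128 bp upstream and 2000 bp downstream of the MANE start, the latter in intron 1, with fold enrichments of 4.87 and 6.79 and ranks of 7720 and 6477 among 11761. At NFKBIZ (chr3:101827991-101861022, plus strand) one lay 227 bp upstream at 4.65, rank 8236, and one 21743 bp upstream of the MANE start at 8.86, close to the most upstream annotated start and inside the span of NXPE3. The start site peaks were found again in 1 ETS1 KD library each, 113 bp upstream of NFKBIE at 6.25 with guide 2 and 216 bp upstream of NFKBIZ at 5.99 with guide 1. The κB matches under them are printed as above, since these 2 genes include the largest rise with TWEAK and the only loss in ETS1 KD.
NFKBIE, 128 bp upstream, chr6:44265671-44265710, minus strand: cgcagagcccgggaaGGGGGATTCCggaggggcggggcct
NFKBIE, intron 1, chr6:44263576-44263615, minus strand: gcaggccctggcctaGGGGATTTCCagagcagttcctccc
NFKBIZ, 227 bp upstream, chr3:101849260-101849299, plus strand: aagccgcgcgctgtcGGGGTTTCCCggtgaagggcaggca

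In TWEAK-treated ETS1 KD cells most of the p52 sites were still found. Of the 13 sites, 9 had a peak in all 6 TWEAK libraries. The share of all p52 sites that did so was not counted, so the 13 cannot be set against p52 sites at large. With guide 2, 7 of the 9 genes had a site, against 13.8% of all genes, and with guide 1, 5 of the 9, against 6.09%. Within 1 kb of the MANE start the counts were 6, against 4.01%, and 3, against 1.49%. The genes lacking a site with guide 1 but not in control cells were TNFAIP3 and CYLD, whose peaks were absent from the first guide 1 library only, the one with the shortest TWEAK list at 1387 peaks. The second guide 1 library had them at 5.70 and 10.0. The start site peak of TNIP1 and the BCL3 peak 10666 bp upstream were likewise absent from that first library, and the BCL3 peak was absent from the second guide 2 library as well. Cut to the 452 strongest peaks, the guide 2 lists gave 3 of the 9 genes a site, against 2.15% of all genes. At NFKBIB the fold enrichment in the 4 ETS1 KD libraries was 32.3 and 70.8 with guide 1 and 65.6 and 68.4 with guide 2, against 35.5 and 68.2 in control cells. At the TNIP1 site 6178 bp upstream it was 44.3 and 97.6 with guide 1 and 93.2 and 80.6 with guide 2, against 30.4 and 63.6. At both sites the ETS1 KD and control values overlapped. At TNFAIP2 it was 17.9, 31.4, 16.9 and 24.8 against 20.3 and 50.3, and at CYLD it was 10.0 with guide 1 and 8.17 and 8.18 with guide 2 against 9.74 and 29.9, all within or below the control range. No test was made of these values, which rest on 2 libraries per condition and lists of unequal length.

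**Figure D3:**
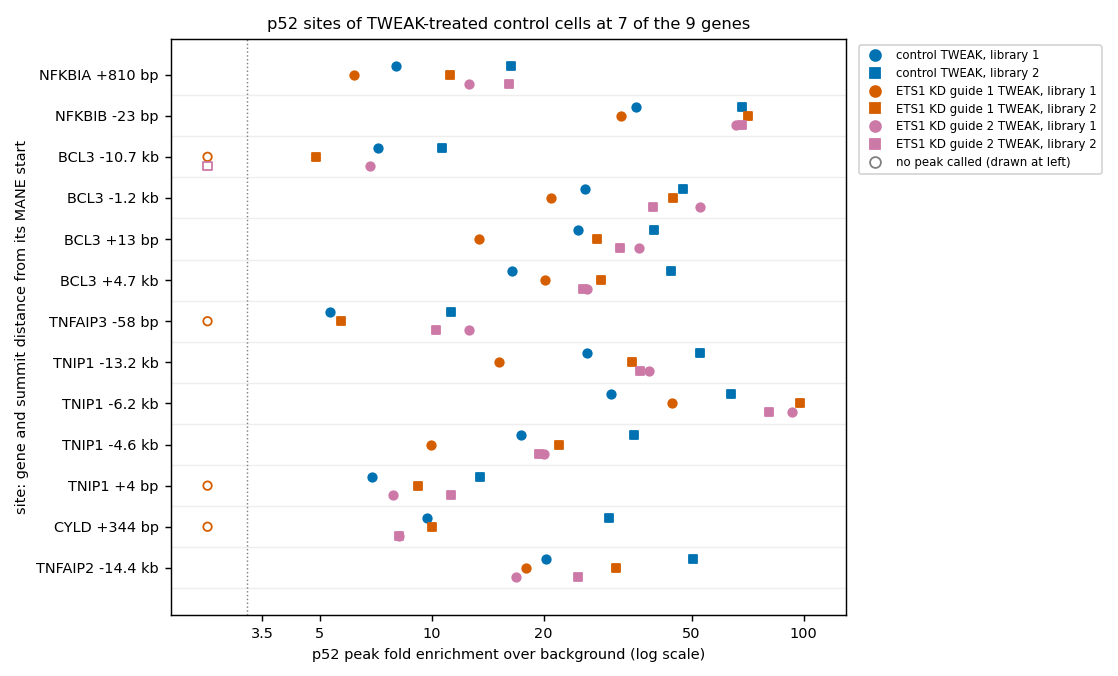
Fold enrichment (log axis) of the p52 peak at each of the 13 sites of TWEAK-treated control cells, labelled by gene and by the distance of the summit from the MANE start, in the 6 TWEAK libraries. Open symbols at the left edge mark libraries with no peak called there. The TNIP1 site 6178 bp upstream and the NFKBIB start site are the strongest, and the missing peaks fall on weaker sites in ETS1 KD libraries.

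For ETS1, 1 of the 9 genes had a site without TWEAK, TNFAIP2, against 8.55% of all genes, and 0 of the 9 with TWEAK, against 11.6%. With 9 genes these counts are near the share of all genes. The TNFAIP2 peaks lay 144 and 219 bp downstream of the MANE start in the untreated libraries, with fold enrichments of 4.78 and 3.40, and 229 bp downstream at 3.58 in the second TWEAK library. TNIP1 had a peak 150 bp upstream in 1 untreated library, at 3.16, and NFKBIE had one 8483 bp from its start in 1 TWEAK library, at 4.17, where it lay in SLC35B2, 460 bp from that gene's start. NFKBIZ, the gene that was lower in ETS1 KD, had no ETS1 peak in any of the 4 libraries within the region searched. The ETS1 lists held 2066 to 4372 peaks.

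RNA Pol II had a site within 1 kb of the MANE start of all 9 genes in control cells, with and without TWEAK. Such a site was found for 47.2% of the genes tested that have a MANE start without TWEAK and 60.3% with it. It was found for 8 of the 9 in ETS1 KD, against 50.1%, and for 7 of the 9 in NFKB2 KD, against 44.9%. The promoter peak of a library was taken as the one of highest fold enrichment within 1 kb of the MANE start. Its fold enrichment was higher in both TWEAK libraries than in both untreated ones for 7 of the 9 genes, against 16.9% of genes with such a peak in all 4 libraries. The exceptions were BCL3 and CYLD. By the rank of the peak as a percent of its own list, which depends on the length of the list, this held for 5 of the 9, against 15.1%. By its position in the list, a measure added after the data were seen, it held for 7 of the 9, against 21.1%.

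At NFKBIE the RNA Pol II promoter peak had a fold enrichment of 7.26 and 14.2 untreated and 35.9 and 25.1 with TWEAK, and its rank went from the top 19.4% and 7.89% of the list to the top 1.86% and 2.66%. In ETS1 KD it was at 15.5 and 18.5, or 4.67% and 2.97%, and in NFKB2 KD at 12.8 and 10.8, or 7.06% and 9.60%. Both KD conditions lay between the untreated and the control TWEAK ranks or overlapped the former. NFKBIA had 35.0 and 36.0 untreated, 159 and 67.7 with TWEAK, 37.8 and 43.5 in ETS1 KD and 45.9 and 19.5 in NFKB2 KD. The control TWEAK peaks were the highest by rank too, at 0.311% and 0.702% against 1.34% and 1.46% untreated. NFKBIZ carried the strongest promoter peak of the 9, at 37.5 and 66.1 untreated, 195 and 74.3 with TWEAK, 48.3 and 47.3 in ETS1 KD and 56.7 and 23.9 in NFKB2 KD. As a percent of the list its rank with TWEAK, 0.157% and 0.407%, overlapped the untreated 0.946% and 0.386%, but by position, 70 and 110 against 235 and 148, it did not.

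TNFAIP3 also had a higher RNA Pol II peak with TWEAK, at 25 and 10.0 against 6.73 and 5.78, and TNFAIP2 one at 28.8 and 15.5 against 7.10 and 11.1, although the RNA of neither passed the test. In ETS1 KD these were 4.65 and 6.13 at TNFAIP3 and 8.67 and 12.5 at TNFAIP2. NFKBIB went from 8.55 and 13.1 to 20.7 and 13.4, and TNIP1 from 5.75 and 7.09 to 14.4 and 7.28, each with 1 TWEAK library close to the untreated ones. BCL3 had 9.61 and 7.57 untreated against 10.8 and 7.21 with TWEAK, and CYLD 5.82 and 9.38 against 8.75 and 7.45. At TNIP1 and BCL3 these values need not follow 1 peak, because the summit moved between libraries. From the MANE start of TNIP1 it lay at -882 and 300 bp untreated, 159 and 170 bp with TWEAK and -115 and 845 bp in ETS1 KD. From that of BCL3 it lay at -3 and -822 bp untreated, 77 and 53 bp with TWEAK and 10 and -962 bp in NFKB2 KD. The fold enrichment was lower in both ETS1 KD libraries than in both control TWEAK libraries for 7 of the 8 genes with a peak in all 4. This was also so for 55.7% of all genes with such peaks. For NFKB2 KD it was 6 of 7, against 47.5%. By rank as a percent of the list the counts were 5 of 8, against 35.7%, and 6 of 7, against 36.7%. By position they were 6 of 8, against 26.3%, and 5 of 7, against 18.8%, and BCL3 was then higher in NFKB2 KD. Peaks were missing at CYLD in the first ETS1 KD library, and at CYLD and TNFAIP3 in the second NFKB2 KD library, the shortest RNA Pol II list with 11175 peaks.

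**Figure D4:**
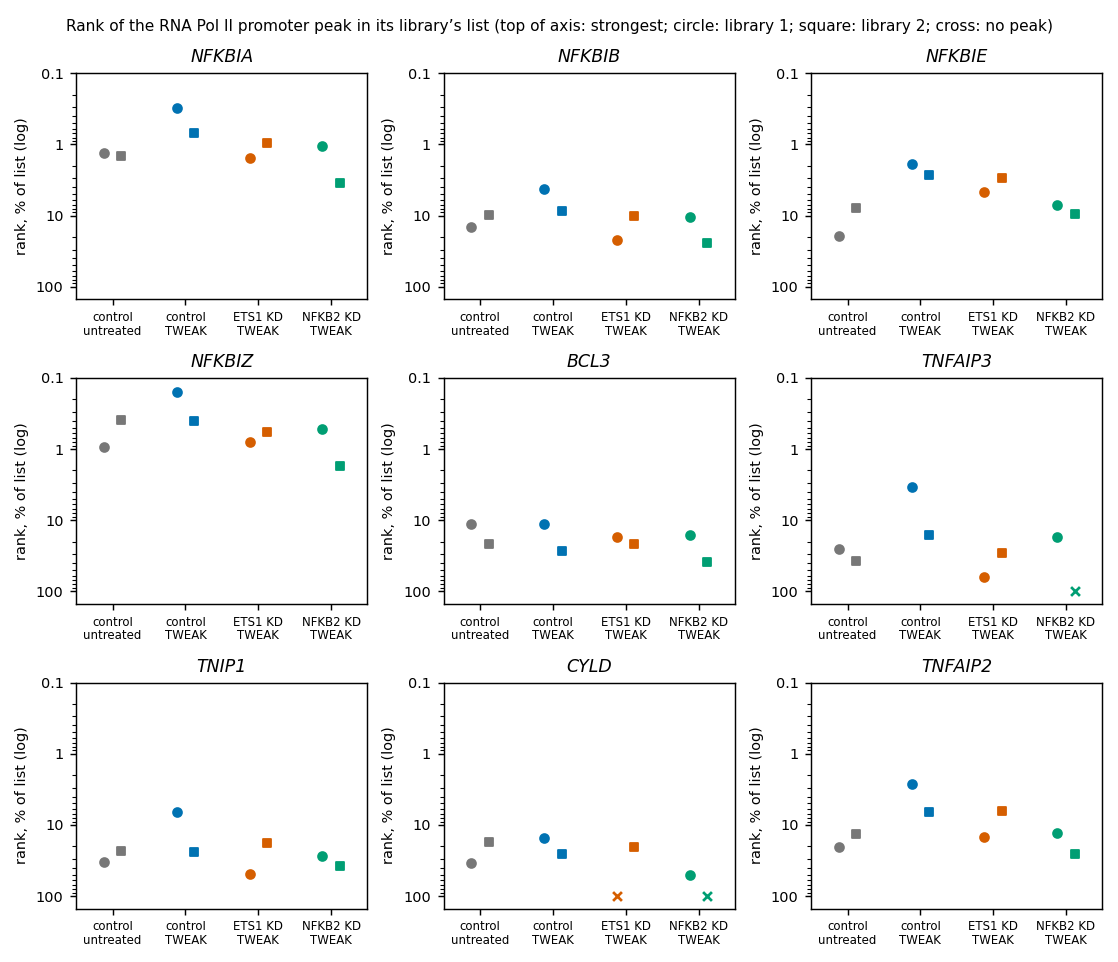
Rank of the strongest RNA Pol II peak within 1 kb of the MANE start of each gene, as a percent of the peaks in that library's list (inverted log axis, strongest at the top), in 2 libraries of each of 4 conditions. Crosses mark libraries without a peak. By this percent NFKBIE, NFKBIA, NFKBIB, TNFAIP3 and TNFAIP2 rank higher in both TWEAK-treated control libraries than in both untreated ones, and BCL3 and CYLD overlap.

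Other genes of the pathway gave a background for the 9. Of 20 further inhibitors and ubiquitin editors, all tested, the median log2 fold change with TWEAK in control cells was 0.01. None fell and 2 rose, against 1.55% of all genes. These were TNIP3 (ABIN-3), at 0.765, 1.54 and 1.28 CPM against 9.69, 6.77 and 10.2 CPM (log2 2.88 ± 0.33, edgeR adjusted p = 0.000473), and TNIP2 (ABIN-2), at 58.8, 56.8 and 55.9 against 102.5, 97.2 and 95.5 CPM (log2 0.78 ± 0.09, adjusted p = 0.000562). With TNIP1 this made 3 ABIN genes higher. None of the 20 was called in either KD against control cells. In NFKB2 KD 3 of the 20 lay below all control libraries, against 3.82% of all genes. TNIP2 and TNIP3 were among the 3 (log2 -0.35 ± 0.09 and -0.86 ± 0.29, edgeR adjusted p = 0.682 and 0.949).

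Of 18 NF-κB subunits, kinases and receptor components, 7 rose with TWEAK, against 1.55% of all genes. BIRC3 (cIAP2), which takes part in the turnover of NIK, went from 4.52, 3.53 and 1.97 to 166, 153 and 202 CPM (log2 5.71 ± 0.42, adjusted p = 2.92e-05). NFKB2 rose by 2.35 ± 0.18, MAP3K14 by 1.57 ± 0.31 and RELB by 1.36 ± 0.15 on the log2 scale. TRAF2, TRAF3 and BIRC2, which restrain NIK in resting cells, made up the rest. Against control cells, NFKB2 itself was the 1 gene of the 18 called in NFKB2 KD, and none was called in ETS1 KD. In NFKB2 KD 5 of the 18 lay below all control libraries, against 3.82% of all genes. The 5 include NFKB2 itself, the targeted gene, and the others were RELB, TRAF2, BIRC2 and BIRC3. Of 16 cytokine and other target genes, 13 were tested and 7 rose, with TRAF1 (3.06 ± 0.31), CXCL3 (2.54 ± 0.33) and CXCL2 (2.04 ± 0.25) among the largest. MMP9 had 0 counts in the untreated libraries and 18, 51 and 118 with TWEAK. The mean with TWEAK, 1.73 CPM, was 16.6-fold above a floor of 3 counts per library, or 0.104 CPM. The libraries behind that mean ran from 0.646 to 3.28 CPM. In ETS1 KD 2 of the 13 were called lower, against 1.13% of all genes. They were IL6 (-2.18 ± 0.20, edgeR adjusted p = 0.00019) and CXCL2 (-1.40 ± 0.24, adjusted p = 0.0109). In NFKB2 KD 1 was called lower, TRAF1 (-2.08 ± 0.30, edgeR adjusted p = 0.0392), against 0.0237% of all genes. In each KD 7 of the 13 lay below all control libraries. This held for 10.8% of all genes in ETS1 KD and for 3.82% in NFKB2 KD.

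For each gene the 3 genes most like it over the 12 libraries were listed by Pearson's r of log2 CPM, as a description, since libraries of 4 groups share their group effects. NFKBIA was most like RFTN1 (r = 0.979), RELB (0.976) and CPM (0.969), and NFKBIE most like SLAMF8 (0.978), KRT15 (0.970) and NFKBIA (0.966). NFKBIZ was most like UNC13D (0.955), ETS1 (0.953) and GFPT1 (0.935). NFKBIB was most like BTN2A1 (0.976), RASSF3 (0.959) and C22orf46P (0.957), and TNIP1 most like FBXL19-AS1 (0.974), FAT2 (0.973) and ZSWIM4 (0.965). The genes most like BCL3 were SPRED3 (0.979), CUX1 (0.967) and PLEKHG2 (0.966), and those most like TNFAIP3 were NUMB (0.949), MSN (0.929) and NBPF9 (0.918). CYLD was followed by RABL3 (0.967), WAC (0.950) and IFIT3 (0.937), and TNFAIP2 by MOV10 (0.969), GRAMD4 (0.944) and PDIA5 (0.943). None of these lists for NFKBIB, TNIP1, BCL3, TNFAIP3, CYLD or TNFAIP2 held a gene from the pathway lists. That for NFKBIZ held only ETS1, a KD target.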

How the data were processed

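The 9 genes, the companion lists and the tests were chosen with earlier results of these data known. RNA-seq counts were deposited as raw read counts per Ensembl gene, which the authors made with Trimmomatic, STAR (hg38) and featureCounts. The library kit keeps strand, but tool versions and the strand setting of the counting are not given in the sources used here, so antisense reads could enter a gene's count. Peak lists, one per library, were made by the authors with Bowtie2 (hg38) and MACS2 with input subtraction and removal of blacklisted regions. In these deposited lists the fold enrichment is a ratio at the summit, and p- and q-values are given as −log10. The 3 input samples were not analysed here, and depth per ChIP-seq library is unknown.

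Genes were named with GENCODE 44. Of 62696 rows, 16879 passed filterByExpr. Groups were compared with edgeR 4.0.16 (TMM, quasi-likelihood F-test, 2-sided, all 12 libraries in one model, Benjamini-Hochberg adjustment over all genes tested, call at adjusted p under 0.05) in R 4.3.3. CPM used TMM library sizes. Replicates differed beyond sampling noise (chi-square per gene 6.86 to 88.8). The study's methods describe the RNA-seq replicates as biological. Peaks sharing at least 1 bp were matched, ranked by the peak caller's q-value, and sequences were read with pysam 0.24.0. Named genes were the 9, NFKB2 and ETS1 as checks, at most 4 per companion list past the threshold with the largest absolute log2 fold change per comparison, and the 3 genes most correlated with each member. TRAF2, TRAF3 and BIRC2 were named after their values were seen, and the cell type markers as checks. Alternatives were DESeq2 1.42.0, RLE size factors, no filter on low counts, only the groups compared, the study's thresholds, a replicate block, a correction for GC content and length, and leaving out each library; for peaks, a stricter q, a 5 kb window, either replicate, equal list lengths, start site windows alone and summits alone. The scripts were tested on simulated data.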

Additional observations from a re-analysis of the deposited data

How the results depend on the processing

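Of 54 log2 fold changes, 9 genes in 6 comparisons, those that kept both direction and call numbered 54 with RLE size factors, 51 with DESeq2, 51 with the replicate block, 49 with GC content and length corrected, 47 with only the groups compared, 46 with the study's thresholds, 45 with block and correction together and 43 with no filter on low counts. Leaving out 1 library kept 585 of 648. The causes were not tested. The comparisons below are TWEAK in control cells, ETS1 KD and NFKB2 KD against control, ETS1 KD against NFKB2 KD, and ETS1 KD or NFKB2 KD with TWEAK against untreated cells.

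Genes called, 520, 234, 5, 327, 2334 and 102 in that order, became 876, 470, 34 and 760 with DESeq2, and 283 in the last. With no filter they were 859, 469, 87 and 781, and 278 in the last. With the study's thresholds they were 1197, 957, 379 and 1244, and 671 in the last. Corrected for GC content and length, TWEAK gave 940, ETS1 KD 474, ETS1 KD against NFKB2 KD 834 and the last 229. With only the groups compared, NFKB2 KD gave 2, ETS1 KD against NFKB2 KD 104 and the last 18. Leaving out 1 library gave 171 to 972, 102 to 391, 2 to 4, 76 to 561, 1179 to 3074 and 38 to 246.

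Whether the replicate numbers pair the libraries was not settled. Of 18 same-number correlations of deviations, 9 were over 0.1, in a range of -0.30 to 0.49. Libraries of different numbers were not compared in this way, so these values cannot decide it. The replicate block gave 657, 252, 4, 361, 2792 and 122 genes and 5, 1, 0, 1, 6 and 2 of the 9, and with the correction 1440, 724, 19, 1374, 4365 and 358 genes.

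Of the 9 genes, 5, 1, 0, 0, 4 and 2 were called. For NFKB2 KD this became 1 with DESeq2 or no filter and 2 with the study's thresholds. For ETS1 KD against NFKB2 KD it became 1 with DESeq2, the study's thresholds, the block or the correction, and 2 with no filter or block and correction, which also gave 7 and 4 against untreated cells. With only the groups compared the last was 0. Leaving out 1 library gave 2 to 5, 1 to 1, 0 to 0, 0 to 1, 3 to 5 and 1 to 2.

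Apart from the fits with 1 library left out, reversed log2 values were all close to 0. They were BCL3 with TWEAK (-0.02, no filter), TNIP1 in ETS1 KD against NFKB2 KD (-0.01, no filter, and -0.02, groups compared), CYLD in ETS1 KD against untreated (-0.02 and -0.01, likewise), and CYLD in NFKB2 KD against untreated (0.02 with the correction, with and without block). Leaving out 1 library, signs turned for BCL3 with TWEAK (-0.21 to 0.50) and in ETS1 KD against untreated (-0.52 to 0.14). For CYLD they turned in ETS1 KD against NFKB2 KD (-0.12 to 0.09), ETS1 KD against untreated (-0.08 to 0.07) and NFKB2 KD against untreated (-0.09 to 0.13). For TNFAIP2 they turned with TWEAK (-0.20 to 0.09), in NFKB2 KD (-0.34 to 0.13), NFKB2 KD against untreated (-0.40 to 0.07) and ETS1 KD against NFKB2 KD (-0.48 to 0.01). For TNFAIP3 they turned in NFKB2 KD (-0.10 to 0.37) and ETS1 KD against NFKB2 KD (-0.06 to 0.24), and for TNIP1 in the latter (-0.05 to 0.04).

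Of genes with sites, ETS1 without TWEAK gave 0 at −log10 q of at least 5 or with equal list lengths and 2 with either replicate, ETS1 with TWEAK 2 and p52 with guide 1 8 with either replicate, and equal list lengths gave 4 for p52 in control cells with TWEAK and 3 with guide 2. Either library alone gave p52 0 to 0 without and 7 to 9 with TWEAK, 5 to 8 with guide 1 and 7 to 8 with guide 2, ETS1 1 to 2 and 1 to 1, and RNA Pol II 9 to 9, 9 to 9, 8 to 9 and 7 to 9. By position in the list in place of percent of the list, chosen after seeing the data, RNA Pol II promoter ranks higher with TWEAK went from 5 to 7 genes, lower in ETS1 KD from 5 to 6 and lower in NFKB2 KD from 6 to 5.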
